A study of Mus musculus with 2 samples.

Results

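The S100 calcium-binding proteins were followed in immune cells from untreated and irradiated mouse tumors. Rows of both count matrices were taken whose symbol was S100a1, S100a4, S100a6, S100a8, S100a9, S100a10, S100a11 or S100a13, 8 of 32285 genes, a rule that reads gene symbols and no measured value. The cells had been sorted for CD45, the surface marker of blood-derived cells, from tumors of the mouse colon carcinoma line MC38 grown in wild-type (WT) mice. The Control library came from pooled tumors without irradiation, and the IR library from pooled tumors that had received 20 Gy in a single fraction 4 days before collection. Each group was thus 1 library of pooled tumors with no replicate, no test could be run, and every difference given holds between these 2 libraries.

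S100 proteins are small proteins with paired EF-hand loops that bind calcium and then expose a surface for partner proteins. S100a8 and S100a9 pair as calprotectin, which fills the cytosol of neutrophils, binds zinc and manganese, and acts as an alarm signal on Toll-like receptor 4 and the receptor Ager once released. The others are found in many cell types: S100a10 pairs with annexin A2, S100a11 with annexin A1, S100a6 with the protein Cacybp, S100a4 with non-muscle myosin, S100a13 takes part in the release of proteins without a signal peptide, and S100a1 is best known in muscle.

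The filtered libraries held 4740 Control and 3363 IR cells. They had 37352203 and 33617198 UMIs (unique molecular identifiers, each marking 1 captured RNA molecule), a median of 6475 and 7527 UMIs per cell. Cells were assigned to lineages, called gates here, by marker genes that held no S100 gene. The neutrophil gate, defined by 7 markers such as Csf3r, Cxcr2 and Retnlg, held 33 Control cells (0.696%, 95% exact binomial interval 0.480% to 0.976%) and 177 IR cells (5.26%, 4.53% to 6.07%). The monocyte gate held 468 and 1034 cells, and the macrophage gate 1898 and 379. T cells (454 and 264) and NK cells (235 and 346) were also present, so the narrower cell type CD45+CD11b+Ly6Chi in the sample records did not describe these libraries. A stromal gate of 128 and 106 cells had Ptprc, the gene of CD45, at 12.8 and 4.0 CPM against 197 to 1131 CPM in the other gates, so the marker of the sort was nearly absent there. CPM, in full counts per 1000000, is the count of a gene scaled to the total UMIs of all cells in a gate. Since 3′ libraries count each molecule once whatever its length, CPM values of different genes were set side by side without a length correction. Differences between genes in capture were not assessed. Intervals are exact 95% intervals (Poisson for CPM), the limit beside a count of 0 is the level that 3 counts would give, and both cover counting error only, not the spread between animals or libraries.

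All 8 genes lie on mouse chromosome 3 (GRCm38, GENCODE vM21), in a stretch of 3053610 bases. S100a8 (ENSMUSG00000056054) runs from 90668978 to 90670035 on the plus strand and S100a9 (ENSMUSG00000056071) from 90692632 to 90695721 on the minus strand. Their ends face each other across 22596 bases. S100a4 (90603771 to 90606045) and S100a6 (90612882 to 90624181) lie before S100a8. S100a1 (90511034 to 90514392, minus strand) and S100a13 (90514435 to 90524581, plus strand) adjoin each other head to head. S100a11 (93520488 to 93526287) and S100a10 (93555080 to 93564643) lie farther along.

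The promoters of the pair and of S100a11 and S100a4 are shown because these genes had the levels and differences on which the results turn. Each is 300 bases of RefSeq sequence (GRCm38.p6) with the start site at base 251, and 7 of the 8 genes matched the RefSeq table. Capitals mark the motifs searched on both strands. S100a8 is chr3:90668821-90669120 (plus strand), S100a9 chr3:90695672-90695971 (minus strand), S100a11 chr3:93520246-93520545 (plus strand) and S100a4 chr3:90603520-90603819 (plus strand).
S100a8: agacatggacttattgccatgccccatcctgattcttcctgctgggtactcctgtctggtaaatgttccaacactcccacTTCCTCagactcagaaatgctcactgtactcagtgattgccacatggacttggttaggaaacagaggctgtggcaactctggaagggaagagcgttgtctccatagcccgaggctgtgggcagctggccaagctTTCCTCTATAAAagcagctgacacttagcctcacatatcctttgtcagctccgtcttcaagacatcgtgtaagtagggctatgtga
S100a9: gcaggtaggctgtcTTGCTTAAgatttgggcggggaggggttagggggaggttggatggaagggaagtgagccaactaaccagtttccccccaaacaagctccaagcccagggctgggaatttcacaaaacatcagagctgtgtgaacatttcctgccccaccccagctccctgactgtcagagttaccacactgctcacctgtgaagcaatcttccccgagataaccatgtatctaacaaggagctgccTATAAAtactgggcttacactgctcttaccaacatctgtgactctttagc
S100a11: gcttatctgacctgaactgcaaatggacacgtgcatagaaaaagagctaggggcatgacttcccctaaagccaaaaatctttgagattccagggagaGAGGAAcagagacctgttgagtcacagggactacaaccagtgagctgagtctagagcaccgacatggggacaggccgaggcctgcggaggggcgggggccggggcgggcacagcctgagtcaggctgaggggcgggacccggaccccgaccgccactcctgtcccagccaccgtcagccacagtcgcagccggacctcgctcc
S100a4: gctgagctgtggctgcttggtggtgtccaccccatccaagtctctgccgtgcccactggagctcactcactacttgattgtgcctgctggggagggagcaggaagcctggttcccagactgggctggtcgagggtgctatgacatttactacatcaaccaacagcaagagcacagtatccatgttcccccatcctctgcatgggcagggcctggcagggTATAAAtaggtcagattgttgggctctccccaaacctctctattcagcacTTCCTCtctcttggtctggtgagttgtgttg
A TATA box (letters TATAAA) was at base -30 of S100a8, at -31 of S100a4 and at the start site itself of S100a9, and 13.6% of 32851 promoter windows held it. GAGGAA, the core bound by PU.1, a factor of myeloid cells, was on the reverse strand of S100a8 at -170 and -36 (printed as TTCCTC), the second of these directly before the TATA box. It was also in S100a4 (+19, reverse strand) and S100a11 (-153), and 28.3% of windows held it. TTGCNNAA, a pattern of C/EBP factors, was in S100a9 at -236 and in 10.8% of windows. GAAANNGAAA, a pattern of interferon-response elements, was in 3.44% of windows and in none of the 7. No 2 matches overlapped. A match is a description of letters in this window and not a bound site.

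S100a8 and S100a9 were the most abundant members in neutrophils by far and sat orders of magnitude lower in the other gates. In the neutrophil gate S100a8 stood at 28054 CPM in Control (26659 to 29502) and 21762 CPM in IR (21361 to 22168). S100a9 stood at 40989 CPM (39300 to 42732) and 33255 CPM (32759 to 33756). Per neutrophil, the pair together made up a median of 504 of every 10000 UMIs in Control (quartiles 127 and 958) and 429 in IR (158 and 904), so the cells of the libraries overlapped widely. The log2 ratio of CPM, IR over Control, was -0.37 (-0.44 to -0.29) for S100a8 and -0.30 (-0.37 to -0.24) for S100a9. The gate held 54039 Control UMIs from 33 cells, and with looser gate cutoffs the log2 ratios turned to 0.09 and 0.19, so no direction was read from them.

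**Figure D1:**
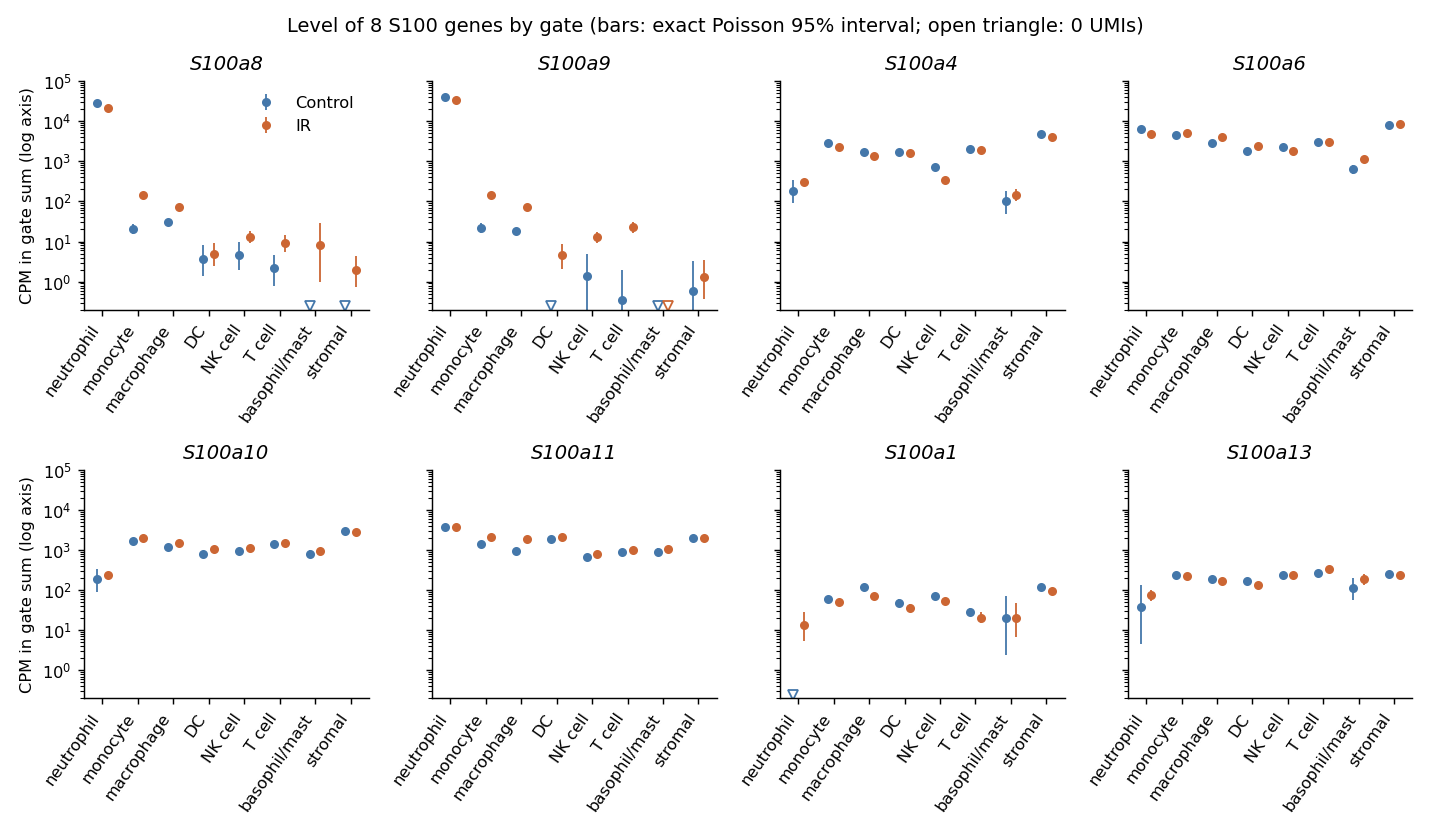
Level of each of the 8 S100 genes (CPM, log axis) by gate, Control in blue and IR in orange, with exact Poisson 95% intervals as bars and open triangles for 0 UMIs. S100a8 and S100a9 stand at 21762 CPM or more in neutrophils and at or below 144 CPM in every other gate drawn, while S100a6 stays between 629 and 8561 CPM in all of them.

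Most UMIs of the pair came from the few neutrophils. These cells held 61.4% (59.4% to 63.3%) of the S100a8 UMIs of all Control cells and 65.2% (64.4% to 65.9%) of those of IR cells. For S100a9 the shares were 80.2% (78.7% to 81.7%) and 70.2% (69.7% to 70.8%). Cells outside every gate held the next share in IR, 24.4% of S100a8 and 22.5% of S100a9, against 13.9% and 6.48% in Control. There 2 of 8 members, again the pair, were past 2-fold higher and 0 lower, against 4.27% and 2.05% of 11816 genes. The macrophage gate held 21.7% of Control S100a8 (536 of 2470 UMIs) and 1.65% of IR S100a8 (285 of 17237 UMIs). Both the larger S100a8 total and the smaller number of macrophages in IR enter these shares. By contrast, neutrophils held 3.06% of S100a11 UMIs in IR and 0.494% in Control. Monocytes, macrophages and ungated cells together held most of the UMIs of each of the other 6 members, with 24.4% to 28.9% in ungated cells.

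**Figure D2:**
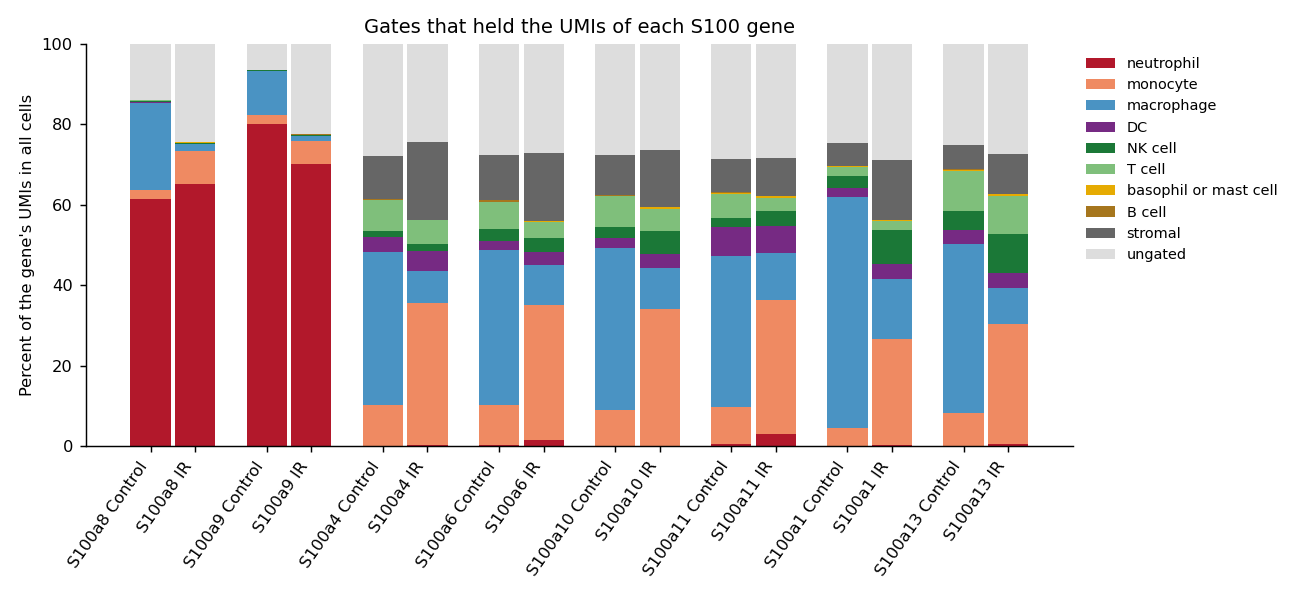
Percent of each gene's UMIs that lay in each gate, in Control (left bar of each pair) and IR (right bar), with ungated cells in light grey. Neutrophils (dark red) hold 61.4% to 80.2% of S100a8 and S100a9 UMIs and a sliver of those of the other 6 genes.

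Over all cells, S100a8 went from 66.1 CPM (63.5 to 68.8) to 513 CPM (505 to 520.5) and S100a9 from 73.9 CPM (71.2 to 76.7) to 727 CPM (718 to 736), log2 ratios of 2.95 and 3.30. These were the 2 of 8 members higher by 2-fold or more, where 5.79% of 14019 genes were. None was lower by 2-fold, against 2.65% of genes. The pair was 1.71% of the UMIs of the family in Control and 10.7% in IR. Gate sizes and levels per gate can be varied in turn. Size here is the share of all UMIs that a gate held, so it depends on UMIs per cell as well as on cell number. For neutrophils it was 0.145% in Control and 1.54% in IR. Ungated cells entered as 1 of the gates, with S100a8 at 35.4 CPM in Control and 468 CPM in IR. With Control levels and the IR sizes of the gates, S100a8 would stand at 451 CPM and S100a9 at 643 CPM. With IR levels and the Control sizes they would stand at 198 and 251.4 CPM. Changing gate sizes alone thus carried each gene nearer to its IR value than changing levels alone. For S100a11 the order was the other way: 1116 CPM in Control, 1318 CPM with IR sizes, 1831 CPM with IR levels and 1864 CPM in IR.

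Outside the neutrophil gate, the gated cells with the highest level of the pair in IR were monocytes. S100a8 stood at 20.5 CPM in Control (15.5 to 26.6, 56 UMIs) and 144 CPM in IR (137 to 152, 1434 UMIs), a log2 ratio of 2.82 (2.43 to 3.23). S100a9 stood at 22.0 CPM (16.8 to 28.3) and 142 CPM (134 to 149), a log2 ratio of 2.69 (2.32 to 3.09). These were 2 of 8 members past 2-fold higher, against 4.56% of 10349 genes, and no member was lower by 2-fold, against 1.01%. The median log2 ratio of the 8 members was 0.22, and that of all genes in the gate -0.01.

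The monocyte level rested on few cells. The 52 IR monocytes with the most UMIs of the pair, 5% of the gate, held 92.6% of them, and the median monocyte had 0 UMIs in both libraries. Cells with 10 or more UMIs of the pair numbered 2 of 468 in Control and 32 of 1034 (3.09%) in IR. Without those cells the pair stood at 18.0 CPM (13.3 to 23.8) and 35.8 CPM (32.1 to 39.9). The log2 ratio was then 0.99, against 2.75 with them. This cut was set on raw UMIs of the same 2 genes, and IR monocytes were deeper (median 8117 against 5314 UMIs). The ratio without those cells is thus a description only. In the neutrophil gate, where the UMIs were spread over nearly all cells, the top 5% held 19.8% in Control and 19.5% in IR.

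**Figure D3:**
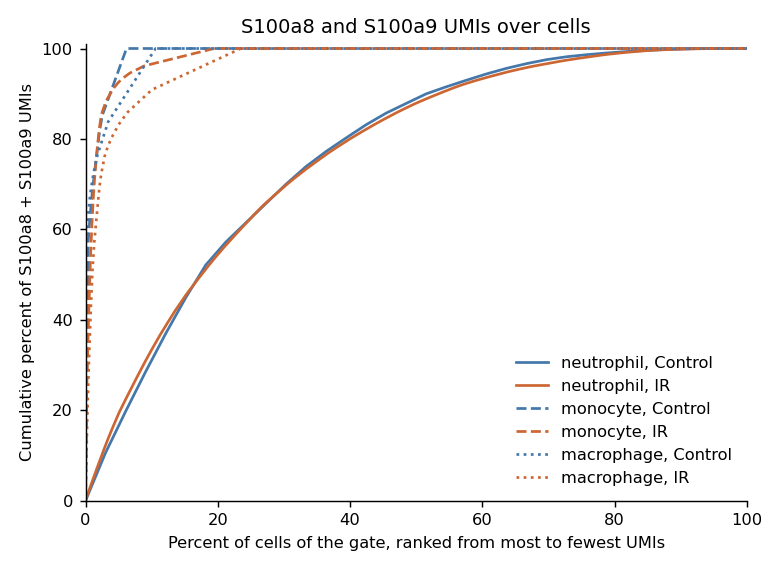
Cumulative percent of S100a8 plus S100a9 UMIs (vertical axis) over the cells of a gate ranked from most to fewest such UMIs (horizontal axis, percent of cells), with neutrophils as solid, monocytes as dashed and macrophages as dotted lines. The monocyte and macrophage lines climb past 83.1% within the top 5% of cells, while the neutrophil lines of both libraries lie almost on each other and rise slowly.

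The cells that carried the pair also carried neutrophil markers. IR monocytes with 3 or more UMIs of the 7 neutrophil markers, 551 of 1034 cells with a median of 9646 UMIs, held 94.97% of the pair and stood at 404 CPM (389 to 420). The 211 IR monocytes with no such UMI (median 5101 UMIs) stood at 38.7 CPM (28.4 to 51.5) and the 165 Control monocytes of this kind (median 4723 UMIs) at 26.5 CPM (16.6 to 40.1), so those intervals overlapped. In these cells the log2 ratio was 0.57 for S100a8 and 0.45 for S100a9, within 2-fold. Monocytes with 1 or 2 such UMIs stood at 9.36 CPM (4.49 to 17.2, 10 UMIs of the pair) in 195 Control cells. In 272 IR cells of that kind the pair stood at 46.8 CPM (37.9 to 57.2, 96 UMIs), so there the intervals did not overlap. Summed, the 7 markers stood at 292 CPM in Control and 605 CPM in IR monocytes, and at 15563 and 15200 CPM in neutrophils. None of the 7 was at 0 in monocytes over both libraries. Il1r2 (62.6 to 208 CPM) and Mxd1 (158 to 277 CPM) made up most of their monocyte sum in IR. Cxcr2 (0.366 and 3.52 CPM), Retnlg (1.46 and 4.73 CPM), G0s2 (7.68 and 58.4 CPM) and Mmp9 (1.10 and 7.24 CPM) had lower levels and were also higher in IR. Csf3r went the other way (61.1 and 45.6 CPM). In neutrophils Cxcr2 stood at 629 and 448 CPM and Retnlg at 3294 and 1473 CPM. The part of neutrophil RNA in the monocyte values was not tested.

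In macrophages the pair was higher in IR as well. S100a8 stood at 31.6 CPM in Control (28.9 to 34.3) and 73.9 CPM in IR (65.5 to 82.96), a log2 ratio of 1.23 (1.01 to 1.44). S100a9 stood at 17.8 CPM (15.9 to 20.0) and 71.0 CPM (62.9 to 79.9), a log2 ratio of 1.99 (1.75 to 2.23). Together with S100a11 these were 3 of 8 members past 2-fold higher, against 3.11% of 11399 genes, and none was past 2-fold lower, against 5.8%. The median over the members was 0.42 and over all genes -0.08. Again few cells held the UMIs: 6 of 1898 Control and 11 of 379 IR macrophages had 10 or more. Without them the pair stood at 19.2 CPM (17.1 to 21.4) and 36.3 CPM (30.4 to 43.1), and the log2 ratio was 0.92, against 1.55 with them. Here too the cut was set on UMIs of the same 2 genes. A single Control macrophage with 24855 UMIs held 170 of the 536 S100a8 and 152 of the 303 S100a9 UMIs of the gate. With doublets kept in, the log2 ratio of the pair was 2.53, and with expected free RNA subtracted that of S100a8 was 0.88, within 2-fold. The 7 neutrophil markers stood at 139 and 340 CPM in macrophages, and none of them was at 0. Il1r2 (73.4 and 174 CPM) and Mxd1 (46.6 and 107 CPM) made up most of that sum. Csf3r, Cxcr2, Retnlg, G0s2 and Mmp9 had lower levels and were also higher in IR. Among them Cxcr2 stood at 1.18 and 2.59 CPM, Retnlg at 1.30 and 2.07 CPM and G0s2 at 1.41 and 27.0 CPM.

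Free RNA in the droplets was the other source that could be gauged. Empty droplets held the pair at 144 CPM in Control (133 to 156) and 816 CPM in IR (785 to 848). A gauge from T cell markers put the share of free RNA at 12.1% and 11.5% of monocyte UMIs and at 13.5% and 8.82% of macrophage UMIs, upper estimates because doublets add to them. At those shares free RNA would bring 17.5 and 94.0 CPM of the pair to monocytes and 19.5 and 72.0 CPM to macrophages. In cells with fewer than 10 UMIs of the pair, a subset chosen by low counts of these genes, the summed Control levels (18.0 and 19.2 CPM) were close to these amounts and the IR levels (35.8 and 36.3 CPM) were below them. The 2 genes differed in this respect. In Control macrophages of this subset S100a8 stood at 17.0 CPM (15.1 to 19.1), above the 8.33 CPM expected from free RNA, and S100a9 at 2.19 CPM (1.54 to 3.02), below the 11.1 CPM expected. Control monocytes had S100a8 at 15.5 CPM (11.1 to 20.9), against 7.48 CPM expected, and S100a9 at 2.58 CPM (1.04 to 5.31), against 9.98 CPM. In IR macrophages S100a8 stood at 29.5 CPM (24.2 to 35.6), with the 28.7 CPM expected inside its interval, and in IR monocytes at 25.03 CPM (21.9 to 28.5), below the 37.5 CPM expected. S100a9 was below its expected level in both IR gates. The source of the UMIs in these cells was not tested.

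The share of cells with any UMI of the pair was compared after each cell was thinned to 500 UMIs, which left out no cell. Among neutrophils it was 90.9% (75.7% to 98.1%) in Control and 92.7% (87.8% to 96.0%) in IR. Among monocytes it was 1.07% (0.349% to 2.48%) and 4.26% (3.11% to 5.67%), and among macrophages 1.84% (1.29% to 2.56%) and 4.75% (2.84% to 7.40%). T cells, which should lack the genes, gave 0 of 454 Control cells, which allows a share of up to 0.661% at 3 counts, and 1.52% of 264 IR cells (0.414% to 3.83%). NK cells gave 0.851% and 1.45%. Without thinning the shares were 6.20% and 19.4% for monocytes, 10.6% and 23.5% for macrophages, 1.32% and 7.95% for T cells and 2.98% and 6.94% for NK cells. Median depths were 5314 and 8117 UMIs in monocytes, 8220 and 8680 in macrophages, 4393 and 5487 in T cells and 4588 and 5582 in NK cells. Without thinning the share was thus higher in IR in each of these gates, the T cells included.

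The balance of the pair differed from that of neutrophils in macrophages of both libraries, in IR monocytes and in ungated cells. S100a9 made up 59.4% (57.8% to 60.9%) of the UMIs of the pair in Control neutrophils and 60.4% (59.9% to 61.0%) in IR neutrophils. Empty droplets had nearly the same balance, 57.2% (53.2% to 61.1%) and 60.1% (58.2% to 62.0%). Monocytes were lower, at 51.7% (42.3% to 61.1%) in Control, where the interval overlapped that of neutrophils, and 49.5% (47.7% to 51.4%) in IR, where it did not. Macrophages had 36.1% (32.9% to 39.5%) in Control and 49.0% (44.8% to 53.2%) in IR. Ungated cells had 34.3% (30.2% to 38.5%) in Control and 56.6% (55.6% to 57.6%) in IR.

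Among cells with fewer than 10 UMIs of the pair, S100a9 made up 11.4% (8.17% to 15.4%) of these UMIs in Control macrophages and 18.8% (12.5% to 26.5%) in IR macrophages. In macrophages with no neutrophil-marker UMI it was 4.06% in Control and 13.6% in IR. The values in monocytes with fewer than 10 UMIs were 14.3% (5.94% to 27.2%) and 30.1% (25.3% to 35.4%). Counted by cell, 173 Control macrophages had S100a8 without S100a9, 17 had S100a9 without S100a8 and 11 had both. In IR macrophages the numbers were 59, 13 and 17, and in IR monocytes 106, 44 and 51. IR neutrophils mostly had both, 162 cells against 4 with S100a8 alone and 4 with S100a9 alone. Split in the same way, the 6 Control neutrophils with fewer than 10 UMIs of the pair had 19 UMIs of S100a8 and 6 of S100a9, or 24.0% S100a9 (9.36% to 45.1%), and the 22 such IR neutrophils had 47.3% (35.6% to 59.2%). The interval of these few Control neutrophils overlapped those of Control macrophages and monocytes. In IR the interval of the 22 neutrophils lay above that of low-count macrophages (12.5% to 26.5%). It also lay, narrowly, above that of low-count IR monocytes (25.3% to 35.4%). Empty droplets of both libraries lay above the intervals of these low-count macrophages and monocytes. The source of the higher share of S100a8 was not tested.

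**Figure D4:**
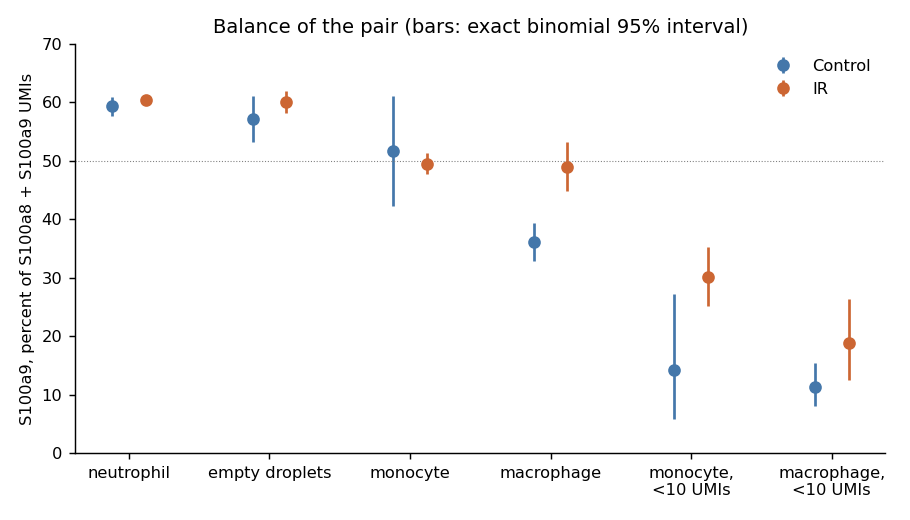
S100a9 as a percent of S100a8 plus S100a9 UMIs in neutrophils, empty droplets, monocytes and macrophages, and in the monocytes and macrophages with fewer than 10 such UMIs, with exact binomial 95% intervals as bars. Neutrophils and empty droplets of both libraries lie between 57.2% and 60.4%, and Control macrophages with fewer than 10 UMIs lie at 11.4%.

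In lymphocytes the counts of the pair were small. T cells had 6 and 19 UMIs of S100a8, or 2.13 and 9.27 CPM, and 1 and 46 UMIs of S100a9, or 0.355 and 22.4 CPM, a log2 ratio of 5.98 with a counting interval of 3.43 to 11.32. NK cells had 7 and 39 UMIs of S100a8 and 2 and 38 of S100a9, a log2 ratio for S100a9 of 3.25 (1.30 to 6.35). These were 2 of 8 members past 2-fold higher in each gate, against 2.26% of 9405 genes in T cells and 2.64% of 8689 genes in NK cells. In T cells 0 of 8 were past 2-fold lower, against 3.02%. A single IR T cell held 38 of 65 UMIs of the pair, and a single IR NK cell 54 of 77. Without these cells the pair stood at 13.2 CPM in IR T cells and 7.81 CPM in IR NK cells, against 39.7 and 24.9 CPM expected from free RNA by the gauge, and the source of these UMIs was not tested. Dendritic cells (DCs) had 6 and 19 UMIs of the pair, stromal cells 1 and 10, and basophils or mast cells 0 (up to 30.4 CPM at 3 counts) and 2. In basophils or mast cells 0 of the 5 members with at least 20 UMIs passed 2-fold, against 9.91% of 1847 genes higher and 5.52% lower. In the 21 and 10 B cells 0 of 5 were higher, against 17.6% of genes, and 2 were lower, against 11.3%.

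S100a11 was the other member that differed most in myeloid cells. In macrophages it stood at 921 CPM in Control (906 to 935) and 1912 CPM in IR (1868 to 1956), a log2 ratio of 1.05 (1.01 to 1.09). In monocytes it stood at 1404 CPM (1360 to 1449) and 2097 CPM (2069 to 2126), a log2 ratio of 0.58 (0.53 to 0.63). Unlike the pair, this difference ran through the cells of the gate. The median macrophage had 6.73 S100a11 UMIs per 10000 in Control (quartiles 3.03 and 11.9) and 14.7 in IR (8.49 and 25.1), and the median monocyte 11.8 and 18.9. After thinning to 500 UMIs, 32.0% of Control and 50.9% of IR macrophages had an S100a11 UMI. Neutrophils had the highest S100a11 level, 3812 CPM (3309 to 4370) and 3717 CPM (3552 to 3887), with overlapping intervals. In DCs (1876 and 2092 CPM), NK cells (650 and 795 CPM) and T cells (896 and 984 CPM) the log2 ratios were 0.16, 0.29 and 0.14, and stromal cells did not differ beyond counting error (2009 and 1982 CPM).

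S100a6 was the most abundant of the other 6 over all cells, 3284 and 4527 CPM. It was highest in stromal cells, 7917 CPM (7785 to 8052) and 8561 CPM (8457 to 8667). Neutrophils were next in Control, at 6255 CPM (5606 to 6958). In IR they stood at 4761 CPM (4575 to 4953), below monocytes at 5115 CPM (5070 to 5159). Macrophages went from 2783 CPM (2758 to 2808) to 3943 CPM (3880 to 4006), a log2 ratio of 0.50, and monocytes from 4464 to 5115 CPM (0.20). DCs stood at 1846 and 2421 CPM (0.39), NK cells at 2329 and 1829 CPM (-0.35) and T cells at 2960 and 2990 CPM (0.01). S100a10 moved alike in myeloid cells, from 1215 to 1529 CPM in macrophages (0.33), from 1676 to 1978 CPM in monocytes (0.24) and from 804 to 1057 CPM in DCs (0.39). It was low in neutrophils, 185 CPM (88.7 to 340) and 244 CPM (203 to 291), where S100a6 and S100a11 were high.

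S100a4 was lower in IR in monocytes and macrophages. It stood at 2812 CPM (2749 to 2876) and 2281 CPM (2251 to 2311) in monocytes, a log2 ratio of -0.30, and at 1658 CPM (1639 to 1678) and 1323 CPM (1287 to 1360) in macrophages, -0.33. In NK cells it went from 721 CPM (678.5 to 766) to 333 CPM (313 to 355), a log2 ratio of -1.11 (-1.24 to -0.99). It was the 1 member of 8 past 2-fold lower there, against 2.41% of genes. The NK cells differed in makeup, since 214 of 235 Control and 342 of 346 IR cells had a UMI of Gzma, a granzyme of mature NK cells and itself a marker of the gate. Among cells with Gzma, S100a4 stood at 610 CPM (568 to 654) and 335 CPM (314 to 357), a log2 ratio of -0.86. T cells (2020 and 1902 CPM) and DCs (1713 and 1644 CPM) differed little, and stromal cells had the highest level, 4703 and 4123 CPM. Neutrophils had 10 and 157 UMIs, or 185 and 304 CPM, with overlapping intervals. This log2 ratio of 0.72 turned to -1.31 with stricter and -0.27 with looser gate cutoffs, so no direction was read from it.

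S100a1 and S100a13 were the least abundant of the other 6 over all cells, 94.6 and 56.7 CPM and 202 and 216 CPM. S100a1 was highest in macrophages and stromal cells, and went in macrophages from 119 CPM (114 to 125) to 73.4 CPM (65.1 to 82.4), a log2 ratio of -0.70 (-0.89 to -0.52). Its log2 ratio was also below 0 in monocytes (60.0 and 50.7 CPM), DCs (48.8 and 36.0 CPM), NK cells (70.8 and 54.2 CPM), T cells (28.0 and 20.5 CPM) and stromal cells (118 and 94.0 CPM), each with overlapping CPM intervals. Of these 5 gates, the interval of the ratio itself stayed below 0 only in NK cells (-0.75 to -0.02) and stromal cells (-0.59 to -0.06). The 33 Control neutrophils had 0 S100a1 UMIs, which allows up to 55.5 CPM at 3 counts, and the 177 IR neutrophils had 7. S100a13 hardly differed in monocytes (232 and 219 CPM), macrophages (185 and 168 CPM) or NK cells (237 and 238 CPM), and in T cells it stood at 271 CPM (252 to 291) and 330 CPM (306 to 356), a log2 ratio of 0.29.

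**Figure D5:**
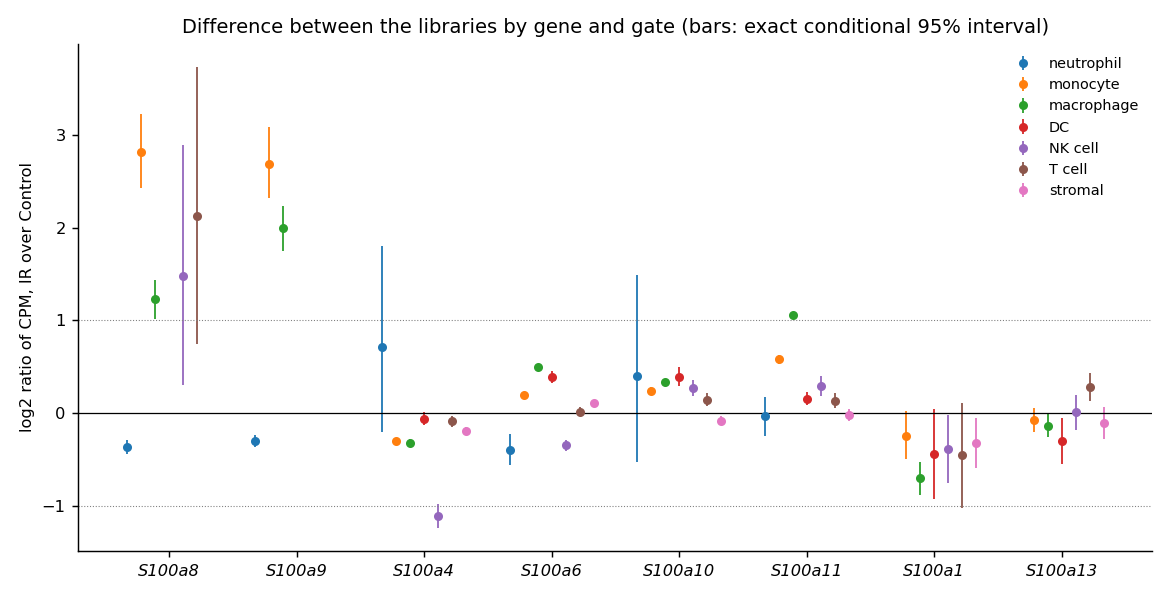
Log2 ratio of CPM, IR over Control, for each gene in 7 gates (colours), with exact conditional 95% intervals as bars and dotted lines at 2-fold. Points are drawn where the gene had at least 20 UMIs over both libraries and more than a few in Control. S100a8 and S100a9 lie above the upper line in monocytes and macrophages, as does S100a8 in T cells (2.12) and NK cells (1.48). In neutrophils the pair lies below 0 with these gate cutoffs, a direction that is not read. The other 6 genes stay within the dotted lines save S100a11 in macrophages (1.05) and S100a4 in NK cells (-1.11).

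Set against the rest of the family, the pair had the larger log2 ratio in monocytes and macrophages, and so it had in T cells (3.67 against 0.04), stromal cells (2.52 against -0.01, from 1 and 10 UMIs), NK cells (2.10 against -0.18), DCs (1.34 against 0.19) and ungated cells (4.32 against 0.26). Empty droplets differed in the same way, with the pair going from 144 to 816 CPM, so this contrast was not particular to monocytes and macrophages. In monocytes the pair went from 42.4 to 286 CPM, a log2 ratio of 2.75, while the other 6 together went from 10648 to 11741 CPM, 0.14 (0.12 to 0.16). In macrophages the ratios were 1.55 for the pair (49.4 and 145 CPM) and 0.38 for the other 6 (6881 and 8948 CPM). In neutrophils they were -0.33 and -0.20, and 0 of the 7 members with at least 20 UMIs passed 2-fold, where 15.7% of 2636 genes were higher and 12.7% lower by that much. In DCs and in stromal cells 0 of 6 members passed 2-fold (2.9% and 4.78% of genes past it in DCs, 3.1% and 2.85% in stromal cells, higher and lower). In stromal cells the other 6 stood at 17923 and 17754 CPM, the highest sum of any gate, with a log2 ratio of -0.01 (-0.03 to 0.01). S100a8 and S100a9 made up 86.8% and 85.8% of the family's UMIs in neutrophils, 0.397% and 2.38% in monocytes and 0.713% and 1.59% in macrophages.

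Across 16 sums (8 gates in 2 libraries), log2 values of CPM plus 10 of S100a8 and S100a9 followed each other with a Pearson r of 0.996. S100a11 correlated with S100a8 at 0.704, and S100a10 and S100a13 at -0.783 and -0.801. The genes most like S100a8 were Mirt2 (r = 0.984), Fpr1 (0.982), Arg2 (0.980), Fpr2 (0.978) and Wfdc21 (0.971), and the same 5 were most like S100a9. Fpr1 and Fpr2 encode formyl peptide receptors of phagocytes. The genes most like S100a11 were Oasl2, Atp6v1g1, Gbp2, Ppp1r2 and Ehd1, with r from 0.871 to 0.909, lower than for the pair. The sums share libraries and gate sizes, and the neutrophil sums set most of the range, so these values are a description.

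The 11 genes for partners and receptors of S100 proteins were Tlr4, Ager, Bsg, Cd36, Cd69, Anxa1, Anxa2, Anxa11, Ahnak, Myh9 and Cacybp. In monocytes 2 of the 10 with at least 20 UMIs were past 2-fold higher and 0 lower, against 4.56% and 1.01% of all genes, with a median log2 ratio of 0.23. These were Cd36, a scavenger receptor, from 22.3 CPM (17.1 to 28.7) to 45.9 CPM (41.7 to 50.3), and Cd69, an early activation marker and receptor for the pair, from 52.0 CPM (43.8 to 61.2) to 112 CPM (105 to 118). In macrophages 1 of 10 was higher and 0 lower, against 3.11% and 5.8% of all genes. It was Cd36, from 58.5 CPM (54.9 to 62.2) to 123 CPM (112 to 134), and the median of the list was 0.20. Tlr4 stood at 19.8 and 30.8 CPM in monocytes and 31.2 and 41.0 CPM in macrophages, within 2-fold in both. Ager had 5 and 7 UMIs in monocytes and 13 and 3 in macrophages. Anxa2, the partner of S100a10, stood at 1497 and 1658 CPM in monocytes and 878 and 1051 CPM in macrophages, and Anxa1 at 289 and 372 CPM and at 315 and 345 CPM.

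In neutrophils 1 of 8 partners was higher and 1 lower by 2-fold, against 15.7% and 12.7% of all genes. Myh9, the heavy chain of a non-muscle myosin, went from 389 CPM (241 to 594) to 190 CPM (154 to 231), and Ahnak, a scaffold bound by S100a10 and annexin A2, had 2 and 58 UMIs with overlapping intervals. In stromal cells 1 of 8 was lower, against 2.85% of genes, as Ahnak went from 1560 CPM (1501 to 1620) to 734 CPM (704 to 765). In basophils or mast cells 1 of 7 was higher, against 9.91% of genes, as Anxa1 went from 304 CPM (205 to 435) to 692 CPM (592 to 804). In T cells 1 of 10 was higher, against 2.26% of genes, which was Cd36 with 13 and 20 UMIs. In the 21 and 10 B cells Cd69 (20 and 14 UMIs) and Anxa2 (30 and 2 UMIs) were the 1 higher and the 1 lower of 5. The shares over all genes there were 17.6% and 11.3%, so these counts are near them. In DCs 0 of 9 passed 2-fold, against 2.9% of genes higher and 4.78% lower, and in NK cells 0 of 8, against 2.64% and 2.41%, so 0 is near what the shares over all genes give. The median log2 ratio of the 8 partner genes with at least 20 UMIs in neutrophils was -0.41, against -0.06 for all genes there.

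The 9 genes for neutrophil granule and secreted proteins were Lcn2, Ltf, Camp, Ngp, Mmp8, Cd177, Wfdc21, Padi4 and Slpi. In neutrophils 5 had at least 20 UMIs, of which 1 was higher and 1 lower by 2-fold, near the 15.7% and 12.7% of all genes. Lcn2, which binds bacterial iron carriers, went from 592 CPM (405 to 836) to 283 CPM (239 to 333), while Cd177 had 1 and 41 UMIs, a log2 ratio of 2.10 (-0.46 to 7.44). Camp and Ngp, genes of immature neutrophils, had 0 and 0 UMIs and 0 and 2 UMIs in this gate. Slpi, a protease inhibitor, was high in neutrophils at 2646 and 2271 CPM. It went in macrophages from 19.1 CPM (17.1 to 21.3) to 142 CPM (131 to 155), a log2 ratio of 2.90, and it was the 1 of 4 granule genes past 2-fold higher there, against 3.11% of all genes. The list medians were -0.22 in neutrophils, -0.32 in monocytes and 0.63 in macrophages. In monocytes, where Slpi stood at 337 and 354 CPM, Wfdc21 was the 1 of 6 past 2-fold higher, against 4.56% of all genes, with 4 and 44 UMIs. Lcn2 had 17 and 49 UMIs in monocytes (6.22 and 4.93 CPM) and 14 and 0 in macrophages, so it did not move with the pair there. Slpi also went from 26.3 to 5.76 CPM in NK cells and from 152 to 573 CPM in basophils or mast cells, and had 7 and 20 UMIs in DCs.

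The other 9 S100 genes of the matrices were barely detected. S100a16 had 147 UMIs in all Control cells and 155 in all IR cells. S100a3 had 14 and 31, S100a5 15 and 8, S100a14 9 and 14, S100b 4 and 10, S100z 0 and 7, S100a2 3 and 2 and S100a7a 0 and 3. S100g, which encodes a calcium-binding protein of the gut, had 0 in both.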

How the data were processed

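Single-cell RNA libraries (10x Chromium 3′ kit v3.1) were made from CD45+ cells of pooled MC38 tumors, 1 Control and 1 IR. The authors deposited unfiltered UMI counts per gene and barcode, 32285 genes in each of the 2 matrices, with 48593879 Control and 42406461 IR UMIs. Per the labels they came from Cell Ranger 6.0.1 on mm10, while the file headers name Cell Ranger 4.

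Barcodes with at least 500 UMIs, 200 genes and at most 25% mitochondrial UMIs were kept (5043 Control, 3578 IR). Scrublet (scanpy 1.11.5) marked 0 doublets by its automatic threshold, so the top 6% of its scores were dropped (303 and 215). The libraries shared 7 of these barcodes of at least 500 UMIs. Each cell was scored for marker lists (mean log of UMIs per 10000, scaled to the median of the 50 highest barcodes) and gated when its best scaled score was at least 0.35, the runner-up at most 0.7 of it and at least 2 markers were found. Monocyte and macrophage lists were not runners-up to each other. Cutoffs were set on marker values alone, and 1276 and 786 cells stayed ungated. The members and gene lists were chosen with earlier results of these data known.

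UMIs were summed per gate and library (scipy 1.17.1, Python 3.11.15). Ratios carry exact conditional 95% intervals. No test was run, since each group had 1 library. Genes with at least 20 UMIs over both libraries in a gate were counted as past 2-fold at a log2 ratio of 1 or more in size. From the partner and granule lists the genes past 2-fold were named, and others were named with values as members' direct partners, chosen after their values were seen. Genes most like a member were the 5 with the highest Pearson r of log2(CPM plus 10) among genes reaching 100 CPM in a sum, without gate markers and other S100 genes. Empty droplets were barcodes with 5 to 100 UMIs. Free RNA was gauged from T cell markers in monocytes and macrophages and from C1qa, C1qb and C1qc elsewhere. Alternatives covered depth, the mitochondrial limit, doublets, gate cutoffs, TMM (edgeR 4.0.16) and DESeq2 1.42.0 scaling factors (R 4.3.3), the CPM total, free RNA and cells without neutrophil markers. The ratio step was tested on simulated data.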

Additional observations from a re-analysis of the deposited data

Results flagged for a closer look

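Barcodes outside every comparison carried more of the pair in IR than in Control. Empty droplets had S100a8 at 61.7 CPM in Control (54.6 to 69.5) and 326 CPM in IR (306 to 346), and S100a9 at 82.4 CPM (74.1 to 91.3) and 490 CPM (466 to 516). The other 6 members together stood at 9283 and 10871 CPM there, a log2 ratio of 0.23. Barcodes removed for more than 25% mitochondrial UMIs had S100a8 at 25.1 CPM (15.1 to 39.3) and 126 CPM (88.3 to 175), from 19 and 36 UMIs, and S100a9 at 18.5 CPM (10.1 to 31.1) and 235 CPM (182 to 298), from 14 and 67 UMIs.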

How the results depend on the processing

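Ratios are log2, IR over Control. For the pair in monocytes (2.75) the value was 3.31 with no doublet removal, 2.04 with stricter and 3.96 with looser gate cutoffs, and 0.55 in cells with no neutrophil-marker UMI. Chosen after the data were seen, leaving out the cell with the most UMIs of the pair gave 3.03, and leaving out cells with 10 or more gave 0.99. For the pair in macrophages (1.55) it was 2.53 with no doublet removal, 1.25 without neutrophil-marker UMIs, 1.21 with free RNA subtracted, and 1.96 and 0.92 in the same 2 later alternatives. For the pair in neutrophils (-0.33) it was -0.41 at 1000 UMIs, -0.39 at 10% mitochondrial UMIs, -0.19 with TMM and -0.24 with DESeq2 size factors, and it reversed to 0.15 with looser gate cutoffs, as did S100a8 (0.091) and S100a9 (0.19) singly. The other 6 members in neutrophils (-0.20) were at -0.38 with stricter cutoffs and -0.064 with TMM, and reversed to 0.0070 with looser cutoffs. In macrophages (0.38) the other 6 were at 0.35 at 10% mitochondrial UMIs, 0.40 with stricter cutoffs, 0.50 without neutrophil-marker UMIs, 0.46 with TMM and 0.46 with DESeq2 factors, and 0.43 with free RNA subtracted. In monocytes (0.14) they were at 0.18 without neutrophil-marker UMIs. The causes were not tested. The share of S100a8 UMIs in the neutrophil gate ran from 50.4% to 66.3% in Control and from 56.5% to 70.7% in IR, and that of S100a9 from 70.8% to 84.5% and from 61.6% to 75.9%, with doublets kept or other cutoffs. In the IR monocyte gate these shares ran from 3.03% to 18.0% (S100a8) and from 1.85% to 15.2% (S100a9). With no filter on low counts, the numbers of genes past 2-fold, higher and lower, went from 472 and 105 to 3229 and 1081 in monocytes, from 355 and 661 to 1711 and 3284 in macrophages, and from 415 and 335 to 4809 and 2091 in neutrophils. S100a9 as a share of the pair moved with the cells left out, in Control macrophages from 36.1% to 29.2% without 1 cell. In macrophages with no neutrophil-marker UMI the log2 ratio of S100a9 went from 1.99 to 3.0. Of 62 alternative values of these 6 results, 36 stayed within the counting interval. TMM shifted the neutrophil gate by 0.14. No paired analysis was possible because each group had 1 library.

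With 33 Control neutrophils, and with most UMIs of the pair in other gates held by a few cells, the precision of these ratios is lower than counting intervals show.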

Other observations

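Cells in no gate held the pair at 53.9 CPM in Control (49.4 to 58.7) and 1077 CPM in IR (1056 to 1099), while the other 6 members stood at 8599 and 10275 CPM there. By the marker list on which each ungated cell scored highest, 52 IR cells nearest the neutrophil list held 27.9% of these UMIs at 6787 CPM, and 326 nearest the monocyte list held 57.6% at 1581 CPM. In Control, 54 cells nearest the neutrophil list held 49.8% at 1010 CPM, 453 nearest the macrophage list held 40.8% at 58.3 CPM and 319 nearest the monocyte list held 5.17% at 12.03 CPM. A further 87 IR cells nearest the T cell list held 9.68% at 725 CPM, and 134 nearest the macrophage list 3.17% at 234 CPM. Of the 9703 IR UMIs, 72 of 786 cells with 10 or more UMIs each held nearly all, since the other 714 cells held 301. In those 714 cells S100a9 made up 22.6% (18.0% to 27.7%) of the pair, against 56.6% (55.6% to 57.6%) in all ungated IR cells. Of the 6 granule genes with at least 20 UMIs in ungated cells, 4 were past 2-fold higher and 0 lower, against 4.27% and 2.05% of 11816 genes. These were Lcn2 (3 and 36 UMIs), Cd177 (11 and 37), Wfdc21 (10 and 56) and Padi4 (13 and 32). Slpi and Mmp8 stayed within 2-fold, with log2 ratios of 0.70 and 0.76.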
